A study of Mus musculus with 10 samples.

Results

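Antioxidant enzymes break down superoxide and peroxides, and 9 of them (Gpx1, Gpx4, Prdx1, Prdx2, Prdx5, Prdx6, Sod1, Sod2 and Cat) were examined beside Selenbp1, a selenium-binding protein. A gene counted as measured where the platform annotation gives a probe set its symbol and no other, and where a gene had several the brightest on average was used. By that rule 7 of the 10 genes were measured, each by 1 probe set, of 22180 genes measured in the series. Prdx1 appears only on 3 probe sets that also carry other symbols, and Prdx5 and Prdx6 were not analysed here. The enzymes were chosen by function and Selenbp1 for its group difference: by unadjusted p it ranked 5 among genes with a higher mean in the arrays labelled FMR1-KO. Its difference is therefore described without a test.

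The samples were 10 Affymetrix arrays of cells from the cortex of mice aged 8 weeks, collected by FACS through an astrocyte EGFP reporter. In the labels 5 arrays have the genotype FMR1_KO and 5 have the genotype wild-type and are titled Control. FMR1 encodes FMRP, an RNA-binding protein whose loss causes fragile X syndrome. No source used here gives the promoter behind EGFP, the mouse strain, the sex or any pooling of animals, and the titles call the arrays of a group biological replicates without saying whether each is 1 animal.

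Oxidative defence in the brain works in steps. Superoxide dismutases turn superoxide into hydrogen peroxide, and catalase, glutathione peroxidases and peroxiredoxins then reduce peroxides, the last of these groups with electrons from thioredoxin or glutathione. Astrocytes are known for a large glutathione pool and for supplying glutathione precursors to neurons. Glutathione peroxidases such as Gpx1 and Gpx4 carry selenocysteine at the active site, whereas Selenbp1 binds selenium without being a selenoprotein of that kind, and in human the enzyme acts as a methanethiol oxidase.

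Values are log2 signals, and each difference is the FMR1-KO-labelled mean less the mean of Control arrays. Fmr1 itself read 8.01 to 8.38 on the arrays labelled FMR1-KO and 7.60 to 8.28 on Control arrays, so its probe set did not separate the groups, and the disrupted part of the gene is not stated, so the label could not be checked this way. Xist read 10.60 and 10.98 on Control arrays 2 and 3 and at most 5.23 on the other arrays. This transcript is made in female tissue, so its high readings point to female material in the Control group only. By this measure sex was not balanced between the groups. Differences without Control arrays 2 and 3, given below for some genes, leave out the high Xist readings. Whether sex bears on any group difference was not tested. All 24 measured astrocyte markers, of 25 listed, averaged higher on the arrays labelled FMR1-KO; their list means were 9.62 to 10.63 there and 9.46 to 10.18 on Control arrays. All 24 measured microglia and macrophage markers, of 25 listed, averaged lower, and their list means were 9.02 to 10.36 on the arrays labelled FMR1-KO and 9.73 to 10.66 on Control arrays. The microglia mean was lowest on FMR1-KO arrays 2 and 1 and on Control array 1. The 4 measured erythroid markers, of 14 listed, had list means between 5.87 and 6.07 on all arrays, close to the level of 5.32 below which probe sets counted as dim, and the globin genes were not analysed here. In such bulk samples fewer cells of a type and less RNA per cell cannot be told apart.

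None of the 6 measured enzymes passed the threshold between the groups, where 0 of 17712 genes tested were called (limma, Benjamini-Hochberg adjusted p under 0.05, 0%). At an unadjusted p under 0.05 in limma, 1 of the 6 measured enzymes had a lower mean, Gpx1, where 3.53% of all genes did so, and 0 of 6 had a higher mean, against 4% of all genes. The groups overlapped for all 6 enzymes; they did not overlap for 0.965% of all genes.

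**Figure D1:**
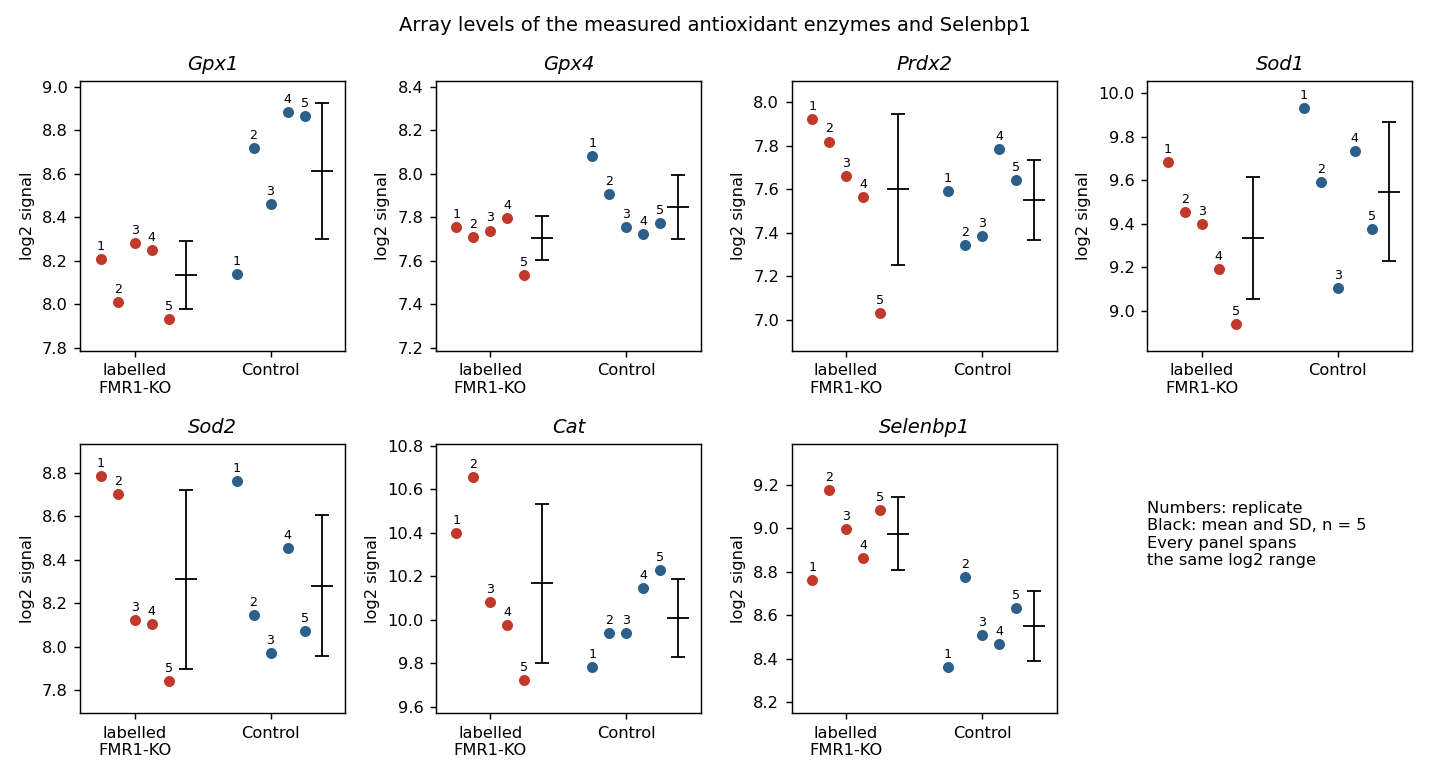
Log2 signal of the 7 measured genes on each array (points, numbered by replicate), arrays labelled FMR1-KO to the left of Control arrays, with the mean and SD of 5 arrays in black; every panel spans the same log2 range. The 5 arrays labelled FMR1-KO lie at 7.93 to 8.28 for Gpx1, below 4 of the 5 Control arrays, and FMR1-KO array 5 is the lowest point in the 6 enzyme panels.

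Gpx1, the cytosolic and mitochondrial glutathione peroxidase that reduces hydrogen peroxide, had the widest gap between group means among the enzymes. It read 8.21, 8.01, 8.28, 8.25 and 7.93 on the arrays labelled FMR1-KO 1 to 5, against 8.14, 8.72, 8.46, 8.88 and 8.86 on Control arrays 1 to 5. Control array 1 alone lay within the range of the arrays labelled FMR1-KO. The means were 8.14 ± 0.16 and 8.61 ± 0.31 (SD, n = 5 each), a difference of -0.48 ± 0.14 (SE; 95% interval -0.79 to -0.17), or a ratio of 0.719, with a limma adjusted p of 0.654.

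Control array 1, the lowest Control for Gpx1, also had the lowest microglia list mean among Control arrays, at 9.73. FMR1-KO arrays 1 to 5 had microglia means of 9.59, 9.02, 10.34, 10.36 and 10.10 and read Gpx1 at 8.21, 8.01, 8.28, 8.25 and 7.93. Control arrays 2 to 5 had microglia means of 10.48, 10.66, 10.62 and 10.63 and read Gpx1 at 8.72, 8.46, 8.88 and 8.86. Without Control array 1 and FMR1-KO arrays 1 and 2, the 3 arrays with the lowest microglia means, the Gpx1 difference was -0.58. With the microglia mean as a covariate it was -0.32, and without Control arrays 2 and 3 it was -0.49. Whether the mix of cells bears on the Gpx1 difference was not tested.

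Gpx4 reduces lipid hydroperoxides in membranes and protects cells from ferroptosis. It read 7.75, 7.71, 7.74, 7.80 and 7.53 on the arrays labelled FMR1-KO and 8.08, 7.91, 7.76, 7.72 and 7.77 on Control arrays. The Control values of arrays 3 to 5 fell among those of FMR1-KO arrays 1 to 4, and the gap between means came from Control arrays 1 and 2 and FMR1-KO array 5. Its group difference was -0.14 ± 0.09 (SE; 95% interval -0.34 to 0.06), short of the threshold at a limma adjusted p of 0.699. It was -0.08 without Control array 1.

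Prdx2, a cytosolic peroxiredoxin that works with thioredoxin, read 7.92, 7.82, 7.66, 7.56 and 7.03 on the arrays labelled FMR1-KO and 7.59, 7.34, 7.39, 7.78 and 7.65 on Control arrays. The Control values all lay inside the range of the arrays labelled FMR1-KO, which held both the highest and the lowest reading. The difference was 0.05 ± 0.16 (SE; 95% interval -0.29 to 0.39; limma adjusted p = 0.949), so neither direction nor equality is shown. It was -0.12 without Control array 1 and FMR1-KO arrays 1 and 2, and -0.07 without Control arrays 2 and 3.

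Neither intracellular superoxide dismutase passed the test. Sod1, the copper and zinc enzyme of the cytosol, read 9.68, 9.45, 9.40, 9.19 and 8.94 on the arrays labelled FMR1-KO and 9.93, 9.59, 9.11, 9.73 and 9.37 on Control arrays. The difference was -0.21 ± 0.17 (SE; 95% interval -0.58 to 0.15; limma adjusted p = 0.742). It was -0.12 without FMR1-KO array 5 and also -0.12 without Control array 1. The Sod1 difference was -0.35 without Control arrays 2 and 3, and -0.41 with the microglia mean as a covariate.

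Sod2, the manganese enzyme of mitochondria, read 8.78, 8.70, 8.12, 8.10 and 7.84 on the arrays labelled FMR1-KO and 8.76, 8.15, 7.97, 8.45 and 8.07 on Control arrays. Its 3 highest readings were on FMR1-KO arrays 1 and 2 and Control array 1, the same arrays that had the lowest microglia and the highest astrocyte list means. The group difference was 0.03 ± 0.20 (SE; 95% interval -0.41 to 0.47; limma adjusted p = 0.980). It was -0.14 without those 3 arrays and -0.30 with the microglia mean as a covariate, where its adjusted p was 0.999. Sod2 had the widest spread of the 7 genes within groups, a pooled SD of 0.37 that lay at percentile 91.0 of all genes, while the pooled SD of 0.13 for Gpx4 lay at percentile 20.6.

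Cat encodes catalase, the peroxisomal enzyme that splits hydrogen peroxide. It read 10.40, 10.66, 10.08, 9.98 and 9.72 on the arrays labelled FMR1-KO and 9.78, 9.94, 9.94, 10.14 and 10.23 on Control arrays. FMR1-KO arrays 1 and 2 stood above every Control array. Control array 1 was the lowest Control. Its astrocyte list mean was 10.18, against 10.56 and 10.63 on FMR1-KO arrays 1 and 2, and its microglia list mean 9.73, against 9.59 and 9.02. Whether the mix of cells bears on the Cat readings was not tested. The difference was 0.16 ± 0.16 (SE; 95% interval -0.19 to 0.51; limma adjusted p = 0.801). It was 0.04 without FMR1-KO array 2, -0.13 without FMR1-KO arrays 1 and 2 and Control array 1, and 0.12 without Control arrays 2 and 3.

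**Figure D2:**
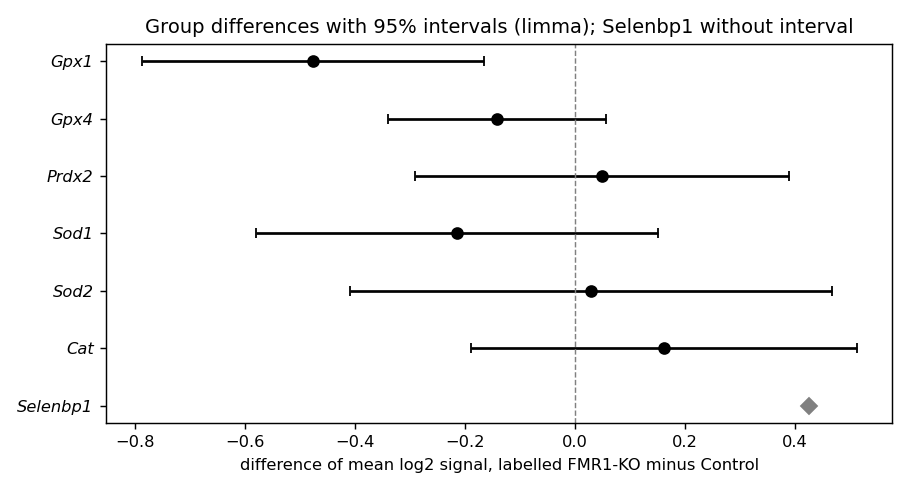
Difference of mean log2 signal (horizontal axis), arrays labelled FMR1-KO minus Control, for each measured gene, with the 95% interval from limma for the 6 enzymes. The interval of Gpx1 runs from -0.79 to -0.17 and those of the other enzymes include 0; Selenbp1 (grey diamond, 0.43) is a description and has no interval.

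Selenbp1 read 8.76, 9.17, 8.997, 8.86 and 9.08 on the arrays labelled FMR1-KO and 8.36, 8.78, 8.51, 8.47 and 8.63 on Control arrays. The groups touched only where FMR1-KO array 1 read slightly below Control array 2, and all 5 arrays labelled FMR1-KO lay above the Control mean. The means were 8.98 ± 0.17 and 8.55 ± 0.16 (SD, n = 5 each), which differ by 0.43, a ratio of 1.34. Leaving out each array in turn gave differences of 0.38 to 0.48. The difference was 0.38 without Control array 1 and FMR1-KO arrays 1 and 2, and 0.49 without Control arrays 2 and 3. These values reuse the arrays on which Selenbp1 was chosen and are no test of it.

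The highest Selenbp1 value, 9.17, was on FMR1-KO array 2, which also had the highest astrocyte list mean, 10.63. FMR1-KO array 5, with an astrocyte list mean of 9.62, read Selenbp1 at 9.08, and Control array 1, with an astrocyte list mean of 10.18, had the lowest Selenbp1 value of all arrays. With the microglia mean as a covariate the difference was 0.43. Whether the mix of cells bears on the Selenbp1 difference was not tested.

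Selenbp1 has a close paralog, Selenbp2, on the same mouse chromosome. Their promoter windows are shown because the array profiles of the pair were close, as described next. The windows hold 300 bases around the annotated start, from RefSeq on GRCm38.p6, plus strand, and capitals mark bases that differ between the windows or stand opposite a gap. Selenbp1 lies at chr3:94932833-94933132 and Selenbp2 at chr3:94693323-94693622.
Selenbp1: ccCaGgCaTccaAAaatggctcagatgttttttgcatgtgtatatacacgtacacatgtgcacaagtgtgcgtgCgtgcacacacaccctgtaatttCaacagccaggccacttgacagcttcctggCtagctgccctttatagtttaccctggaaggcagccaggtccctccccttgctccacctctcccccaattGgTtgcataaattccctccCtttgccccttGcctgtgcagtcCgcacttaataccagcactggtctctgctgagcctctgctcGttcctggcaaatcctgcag
Selenbp2: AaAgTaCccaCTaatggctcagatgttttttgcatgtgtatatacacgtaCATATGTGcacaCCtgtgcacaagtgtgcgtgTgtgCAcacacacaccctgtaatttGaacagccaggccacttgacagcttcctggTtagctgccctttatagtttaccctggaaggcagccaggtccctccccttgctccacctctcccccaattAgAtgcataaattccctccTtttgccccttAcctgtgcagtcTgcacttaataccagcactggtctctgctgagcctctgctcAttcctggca
Of 288 aligned bases 273 were identical, or 94.8%, with 12 bases of Selenbp2 opposite gaps and 12 bases at the ends of the Selenbp1 window outside the alignment.

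Selenbp2 read 6.76, 6.97, 6.99, 6.89 and 7.06 on the arrays labelled FMR1-KO and 6.51, 6.85, 6.83, 6.63 and 6.70 on Control arrays. Again FMR1-KO array 1 was the lowest of its group and Control array 1 the lowest of all. The means were 6.93 ± 0.11 and 6.71 ± 0.14 (SD, n = 5 each), a difference of 0.23 ± 0.09 (SE) with a limma adjusted p of 0.654. Probe sequences were not used here, so whether one transcript is read by both probe sets was not tested, and Selenbp2 is no independent support for Selenbp1.

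**Figure D3:**
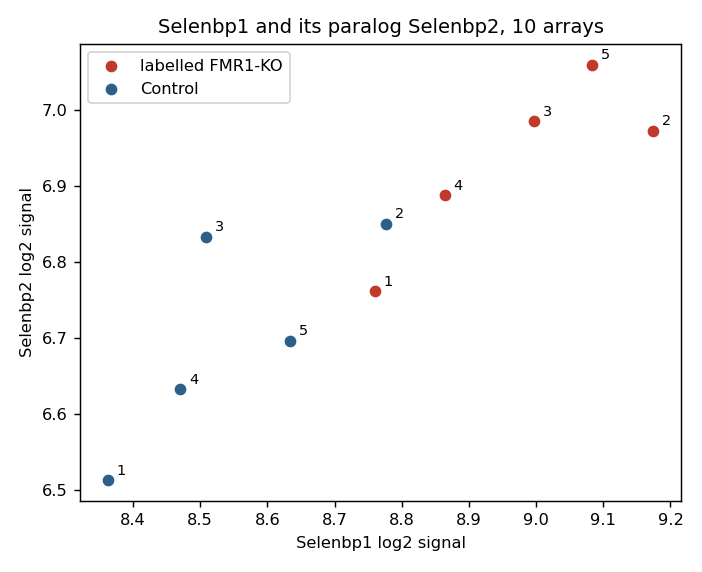
Log2 signal of Selenbp1 (horizontal axis) and Selenbp2 (vertical axis) on the 10 arrays, red for the arrays labelled FMR1-KO and blue for Control arrays, with replicate numbers. Control array 1 is lowest for both genes, at 8.36 and 6.51, and FMR1-KO arrays 2, 3 and 5 are the 3 highest for both.

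Likeness to the Selenbp1 profile was measured as the root mean square difference of log2 values over the 10 arrays, after each gene was centred on its own mean. The median over all other genes was 0.32. The 5 nearest named genes were the probe set annotated to the microRNA gene Mir210 at 0.12, the dehydrogenase and reductase family gene Dhrs13 at 0.13, Selenbp2 at 0.13, the calcium sensor gene Vsnl1 at 0.14 and D4Ertd617e at 0.14. Selenbp2 ranked 4 among all genes tested, and the genes at ranks 2 and 6 were predicted genes. A profile of this kind includes the group difference for which Selenbp1 was chosen, so the neighbours are a description.

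Among the 7 genes the closest pair was Prdx2 and Cat, at a root mean square difference of 0.17, followed by Sod1 and Sod2 at 0.19. The widest was Gpx1 and Selenbp1, at 0.51. Of all genes, 1.16% lay nearer to Sod1 than Sod2 did, and the share nearer to Sod2 than Sod1 was not computed. For Prdx2, 5.72% lay nearer than Cat.

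**Figure D4:**
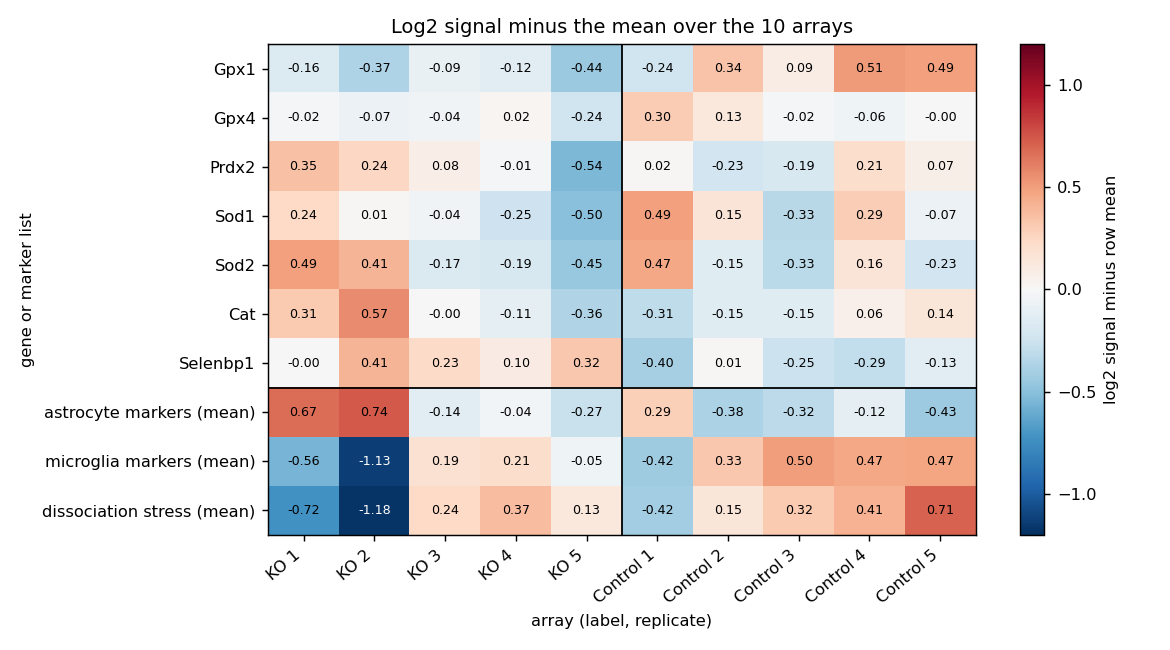
Log2 signal minus the mean over the 10 arrays for each gene (upper rows) and for the mean of the astrocyte, microglia and dissociation stress lists (lower rows), on the arrays labelled FMR1-KO (KO 1 to 5) and Control arrays; red is above and blue below the row mean. FMR1-KO array 5 is below the row mean for the 6 enzymes and at 0.32 above it for Selenbp1.

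FMR1-KO array 5 had the lowest reading of all 10 arrays for each of the 6 enzymes and the second highest for Selenbp1. That array was the lowest for 17.4% of all 17712 genes tested, for 26.6% of the 5194 genes at least as bright as the dimmest enzyme, where Control array 2 had 26.5%, and for 42 of the 121 other genes in the redox lists described next, or 34.7%. The 6 enzymes read -0.24 to -0.54 relative to their own means there, where the median over all genes was -0.05. The array was counted among its group throughout. Without it the differences were -0.43 for Gpx1, -0.10 for Gpx4, 0.19 for Prdx2, -0.12 for Sod1, 0.15 for Sod2, 0.27 for Cat and 0.40 for Selenbp1.

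**Figure D5:**
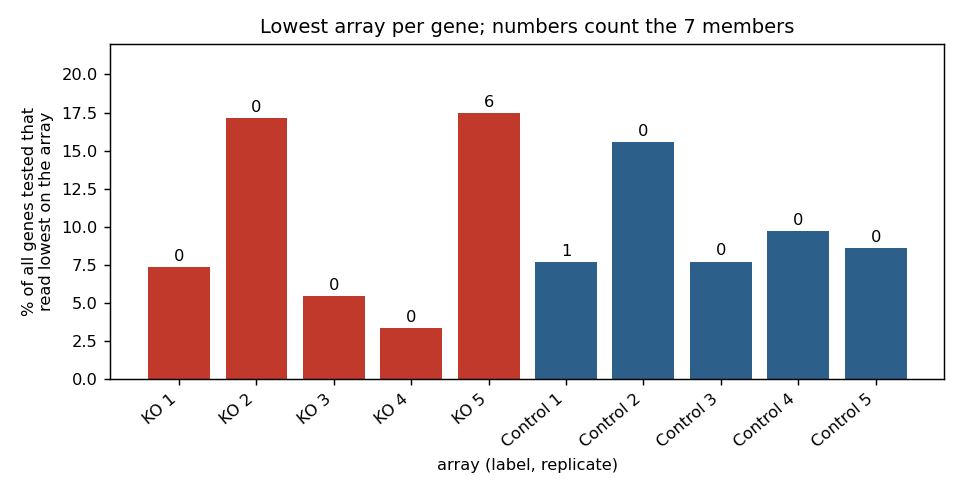
Share of all 17712 genes tested, in percent, that read lowest on each array, red for the arrays labelled FMR1-KO and blue for Control arrays; the number above a bar counts the members of the set that read lowest there. FMR1-KO array 5 has 17.4% of all genes and 6 of the 7 members.

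Other genes of oxidative defence were read from 6 lists, which share some members, and 0 members of any list passed the adjusted threshold in limma. For comparison, 46.8% of all genes averaged higher and 53.2% lower on the arrays labelled FMR1-KO, at a median difference of -0.01, and 4% were higher and 3.53% lower at an unadjusted p under 0.05. In the list of further peroxidases, reductases and related enzymes 25 of 26 genes were measured; 12 averaged higher and 13 lower, at a median of -0.01. At an unadjusted p under 0.05 the list held 1 higher gene, the secreted dismutase Sod3 at 0.37 ± 0.16 (SE), and 1 lower, the thioredoxin inhibitor Txnip at -0.70 ± 0.27. Sod3 read 8.27 and 8.45 on FMR1-KO arrays 1 and 2, 7.63 to 7.67 on FMR1-KO arrays 3 to 5, and 7.397 to 7.74 on Control arrays. Its high values were thus on the pair of arrays with the lowest microglia means, and its difference was 0.24 without FMR1-KO array 2 and 0.08 with the microglia mean as a covariate. Txnip read 9.55 to 10.95 on the arrays labelled FMR1-KO and 10.38 to 11.47 on Control arrays, and its difference was -0.14 with that covariate. Sesn3, a sestrin, differed by 0.43 ± 0.21 and the methionine sulfoxide reductase Msrb2 by -0.15 ± 0.10. The list had 7 higher and 18 lower means with the covariate, at a median of -0.08.

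Glutathione synthesis and transferase genes had 15 higher and 5 lower means among 20 measured of 24, with a median of 0.08 and 1 higher gene at an unadjusted p under 0.05. That gene was Gss, glutathione synthetase, which makes glutathione in the final step. It read 6.45, 6.77, 6.59, 6.59 and 6.56 on the arrays labelled FMR1-KO and 6.43, 5.998, 6.44, 6.38 and 6.29 on Control arrays. Its groups did not overlap, as for 0.429% of all genes in that direction, and the difference was 0.28 ± 0.10 (SE; limma adjusted p = 0.654). The transferases Gstk1, Mgst2 and Gstm7 differed by 0.49 ± 0.25, 0.24 ± 0.12 and 0.27 ± 0.15. The list median was -0.01 without Control array 1 and FMR1-KO arrays 1 and 2, and -0.06 with the microglia mean as a covariate. With that covariate Gss was 0.23, Gstk1 0.07, Mgst2 0.22 and Gstm7 0.13.

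Of the Nrf2 pathway and its targets, genes that the transcription factor Nrf2 (Nfe2l2) switches on under oxidative stress, 27 of 30 were measured. There were 7 higher and 20 lower means, with a median of -0.06, and 1 higher and 3 lower genes at an unadjusted p under 0.05. Fth1, the ferritin heavy chain that stores iron, read 11.44, 11.28, 11.55, 11.59 and 11.06 on the arrays labelled FMR1-KO and 11.71, 11.86, 11.69, 11.77 and 11.76 on Control arrays. Its groups did not overlap, as for 0.536% of all genes in that direction, and the difference was -0.37 ± 0.10 (SE; limma adjusted p = 0.654). The groups of Blvrb, a biliverdin reductase, did not overlap either, at 6.83 to 6.95 on the arrays labelled FMR1-KO and 6.96 to 7.20 on Control arrays. The haem oxygenase Hmox1 differed by -0.32 ± 0.14 and the aldehyde oxidase Aox1 by 0.59 ± 0.23. With the microglia mean as a covariate the list kept 7 higher and 20 lower means and a median of -0.06, with 1 lower and 0 higher genes at an unadjusted p under 0.05. Aox1 was then 0.15, Hmox1 -0.20, Blvrb -0.14 and Fth1 -0.31. Without FMR1-KO array 5 the list had 11 higher and 16 lower means, and without Control array 4 it had 10 and 17. Leaving out any other single array gave 6 to 9 higher means.

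Selenoproteins and genes of selenium handling had 13 higher and 13 lower means among 26 measured of 28, with a median of 0.03, and 9 higher and 17 lower means, with a median of -0.03, without Control array 1 and FMR1-KO arrays 1 and 2. At an unadjusted p under 0.05 the list held 1 higher gene, Selenbp2, and 3 lower ones. The lower ones were Selenop, the selenium transport protein, at -0.28 ± 0.11 (SE), the selenophosphate synthetase Sephs2 at -0.29 ± 0.11 and Selenoh at -0.25 ± 0.09. With the microglia mean as a covariate Selenop was -0.26, Sephs2 -0.15, Selenoh -0.22 and Selenbp2 0.28. Selenop read 10.46, 10.31, 10.29, 10.34 and 10.01 on the arrays labelled FMR1-KO and 10.33, 10.74, 10.77, 10.58 and 10.40 on Control arrays. Control arrays 1 and 5 lay within the range of the arrays labelled FMR1-KO, and without Control arrays 2 and 3 the Selenop difference was -0.15. It was -0.29 without FMR1-KO array 2, and -0.41 without Control array 1 and FMR1-KO arrays 1 and 2.

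Sources of reactive oxygen and genes of copper, haem or sulfur handling had 9 higher and 11 lower means among 20 measured of 23. Their median was -0.04, with 0 higher and 2 lower genes at an unadjusted p under 0.05. Cyba, a subunit of the phagocyte NADPH oxidase, differed by -0.62 ± 0.23 (SE), and the copper chaperone Atox1 by -0.35 ± 0.11. Cyba read 7.25 to 8.47 on the arrays labelled FMR1-KO and 7.99 to 8.998 on Control arrays, lowest on FMR1-KO array 2, which also had the lowest microglia mean, and its difference was -0.18 with the microglia mean as a covariate. Cth and Cbs, which make cysteine from homocysteine, differed by 0.55 ± 0.26 and 0.40 ± 0.23. With that covariate Atox1 was -0.32, Cth 0.14 and Cbs -0.03. Peroxisome biogenesis genes, which build the organelle that holds catalase, had 7 higher and 6 lower means among 13 measured of 16, with a median of 0.00, and Pex7 was the 1 gene at an unadjusted p under 0.05, at -0.19 ± 0.08. Pex6 differed by -0.17 ± 0.08, Pex11a by 0.16 ± 0.16 and Pex16 by -0.08 ± 0.09. The peroxisome list had 2 higher and 11 lower means, at a median of -0.12, both without Control array 1 and FMR1-KO arrays 1 and 2 and with the microglia mean as a covariate. Without FMR1-KO array 2 alone it had 3 higher and 10 lower means.

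Genes induced by dissociation of tissue had 1 higher and 17 lower means among 18 measured, with a median of -0.52. The immediate early genes Junb, Fos and Klf4 differed by -0.74 ± 0.34 (SE), -0.67 ± 0.33 and -0.37 ± 0.17 and Ier3 by -0.56 ± 0.22, the 1 gene of the list at an unadjusted p under 0.05. The stress list means were 8.05 to 9.60 on the arrays labelled FMR1-KO and 8.81 to 9.94 on Control arrays. The list median was 0.12 with the microglia mean as a covariate and -0.22 without FMR1-KO array 2.

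The core of the antioxidant response element, the site that Nrf2 binds, was searched as TGACNNNGC on both strands of the RefSeq promoter windows. Among the 7 measured genes it was found in the window of Sod1 and in no other, including the 4 windows of Gpx4. It occurs in 12.4% of all 32851 windows of 300 bases. A match is a run of letters and not a shown binding site.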

How the data were processed

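The authors deposited log2 signal levels per probe set; the scale was read from the values. Per the labels' protocols, cDNA was amplified with an Affymetrix whole-transcript kit, fragmented and labelled with biotin, and per the series' design text groups were compared in GeneSpring 13.1.1. No source used here states how background, normalization or probe set summary were handled. How the arrays were put on a common scale could therefore shift differences. The number of arrays limits the precision.

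Of 33793 probe sets, 23521 have 1 symbol, 1814 several and 8458 none. Symbols were checked by gene ID against RefSeq (GRCm38.p6), which matched 23328 and changed 0. The brightest probe set per gene was kept, genes with a mean below the 25th percentile (log2 5.32) were left out, and limma 3.58.1 (lmFit, eBayes; R 4.3.3) tested 17712 genes, two-sided, at a Benjamini-Hochberg adjusted threshold of 0.05. The script was tested on simulated data. All 7 measured members passed the filter. Named genes are the members, Fmr1, up to 4 genes per list with the smallest unadjusted p, Selenbp2, and the 5 named genes nearest to Selenbp1. Members, lists and alternatives were chosen with earlier results of these data known.

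Replicate numbers recur in both groups and were not used as pairs in the main fit. Same-numbered deviations correlated, across genes, between -0.02 and 0.53. Whether a number stands for a shared batch was not tested. Alternatives were quantile or median scaling, other dim filters, the mean of probe sets, trend and robust eBayes, array weights, a replicate block, arrays left out, a covariate for the microglia marker mean, and exact permutation.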

Additional observations from a re-analysis of the deposited data

Results flagged for a closer look

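Of 110 groups of 5 arrays examined for a single array far from the rest, 2 stood out, and chance flags about 1 in 20. Control array 1 was the array set apart in both. Its Cbs level was 9.53, where the remaining Control arrays lay at 8.67 to 8.92. Its microglia list mean was 9.73, where the remaining Control arrays lay at 10.48 to 10.66. No value of the 7 members stood out in this way.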

How the results depend on the processing

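Of 132 values of the 6 enzymes under alternatives, 115 kept their direction and stayed short of the threshold; with limma no enzyme passed in any setting run, and adjusted p ranged from 0.203 to 0.999 for Gpx1. Gpx1, Gpx4 and Sod1 kept their sign in all settings run, with leave-one-out differences of -0.60 to -0.41, -0.17 to -0.08 and -0.33 to -0.12. Other dim filters, the mean of probe sets, trend and robust eBayes, the replicate block and exact permutation left each enzyme's difference unchanged. A kept direction in those settings was fixed in advance and shows no stability. Selenbp1 had leave-one-out differences of 0.38 to 0.48. It was chosen for its difference on these same arrays, so its kept sign is no support for that difference. The exact two-sided permutation of labels, run for the 6 enzymes, gave an unadjusted p of 0.0317 for the Gpx1 difference of -0.48, with no adjustment, and 0.135 to 0.889 for the others. Leave-one-out differences were -0.0317 to 0.19 for Prdx2, -0.0888 to 0.15 for Sod2 and 0.04 to 0.27 for Cat. Sod2 was -0.0412 with array weights. Without Control arrays 2 and 3 Prdx2 was -0.0743, Sod2 -0.12 and Pex11a -0.00609. Without Control array 1 and FMR1-KO arrays 1 and 2 Prdx2 was -0.12, Sod2 -0.14 and Cat -0.13. With the microglia covariate Prdx2 was -0.0655, Sod2 -0.30, Cbs -0.0326 and Pex11a -0.0335. The cause of these changes was not tested.

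Genes past the adjusted threshold numbered 0 to 1 when single arrays were left out: Cnbd2 without Control array 5 (-0.74, limma adjusted p = 0.0237), and 1 gene, Tlcd1, without Control array 1 and FMR1-KO arrays 1 and 2 (2.06, limma adjusted p = 0.0229), both named after their values were seen. Unadjusted p fell under 0.05 for 709 higher and 625 lower genes, against 288 and 430 without Control arrays 2 and 3, 591 and 986 without the 3 arrays, and 304 and 453 with the covariate. Single arrays left out gave 343 (FMR1-KO 1) to 1170 (Control 1) higher and 414 (Control 4) to 1255 (Control 1) lower genes; FMR1-KO 2, Control 2 and Control 3 gave 352, 453 and 412 higher and FMR1-KO 5 gave 1130. With a replicate block there were 0 genes past the adjusted threshold and 1006 higher and 1074 lower at an unadjusted p under 0.05, and 1 of 5 arrays correlated best with its own number. No member read near the dim level of 5.32; the lowest value was 7.03.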

Other observations

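Markers of other cell types were read beside the redox genes, and 0 of their members passed the adjusted threshold in limma. Endothelial markers had 2 higher and 12 lower means among 14 measured, with a median of -0.18 and 4 lower genes at an unadjusted p under 0.05, where 3.53% of all genes were lower at that level. Choroid plexus and ependyma markers had 1 higher and 9 lower means, with a median of -0.25. Pericyte and smooth muscle markers had 9 higher and 3 lower means, with a median of 0.08. Oligodendrocyte markers had 6 higher and 6 lower means, neuron markers 5 and 8, and erythroid markers 2 and 2, with medians of -0.00, -0.01 and -0.02. Astrocyte markers had a median of 0.41, with 7 of 24 higher at an unadjusted p under 0.05, where 4% of all genes were higher. Microglia markers had a median of -0.54, with 7 of 24 lower at that level. Ttr, a choroid plexus transcript, read 12.66 to 13.69 on the arrays labelled FMR1-KO and 13.39 to 13.80 on Control arrays.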
